A study of Mus musculus with 16 samples.

Results

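GABAergic cells sorted from the olfactory bulb were compared with GABAergic cells sorted from the cortex of newborn mice, on 3 arrays from each region, chosen by their titles out of 16 arrays in the series. The animals were GAD67-eGFP transgenic mice on a C57Bl/6 background, taken at postnatal day 1, in which a green fluorescent protein driven by glutamate decarboxylase 67 marks cells that make the inhibitory transmitter GABA. Both regions were dissected from 6 mice, dissociated with the same kit and sorted for green fluorescence, and every group of the series carries the same transgene. The labels call the arrays of a region biological replicates but do not say which animals, or how many, went into each. Nor do they say whether a bulb and a cortex sample share animals. P-values and SE (±) therefore rest on the spread between arrays of a group. That spread was estimated over all 16 arrays of the series and drawn toward that of other genes, not from the 6 arrays alone. Each array set 250 ng of cDNA amplified from sorted cells (Cy5) against as much amplified from whole brain of 4 mice of that age (Cy3). The same kind of total brain reference was used on all arrays. Values below are log2 ratios of sorted cells to that reference, and a difference is the mean ratio in olfactory bulb minus the mean ratio in cortex. The dyes were never swapped, but the same orientation on all arrays means that a constant dye effect leaves such a difference unaltered.

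The GABAergic neurons of both regions are born elsewhere. Interneurons of the bulb arise from the lateral ganglionic eminence and later the subventricular zone, travel along the rostral migratory stream and settle as granule and periglomerular cells, whereas cortical interneurons arise mainly in the medial and caudal ganglionic eminences and migrate tangentially into the cortical wall. Each stream is known for its own transcription factors, surface receptors and calcium-binding proteins.

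Among 27262 genes tested with limma, 4477 were called at an adjusted p under 0.05, which is 16.4% of them. Of these, 2249 were higher in olfactory bulb (8.25% of the genes tested) and 2228 lower (8.17%). A 2-fold difference was called for 96 genes (0.352%), 55 higher and 41 lower. That number rests on how dim spots are treated: with an offset of 0 in place of 50 in the normexp background correction it was 500 (206 higher and 294 lower), and with the scanner software's own ratio 827 (404 higher and 423 lower). Median signal in the sorted-cell channel was 179 to 268 units on bulb arrays and 151 to 255 units on cortex arrays, replicate 1 being the dimmest in each region. Ratios correlated across genes at r = 0.943 to 0.958 between bulb arrays, 0.964 to 0.973 between cortex arrays and 0.886 to 0.925 between regions; genes are not independent replicates. The number called depended on single arrays, falling to 2619 without bulb replicate 1, 2955 without cortex replicate 1 and 2746 without cortex replicate 3. Centring each array's ratios on their median, in place of an intensity-dependent (loess) normalization, called 5423 genes, of which 65.4% were higher in bulb, against 50.2% in the main analysis.

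The genes that were highest in bulb relative to cortex included a growth factor ligand, a calcium-binding protein and regulators of growth factor signalling. Kitl, the ligand of the receptor tyrosine kinase Kit, had log2 ratios of -0.46, -0.48 and -0.63 on the bulb arrays, against -2.46, -2.82 and -3.02 on the cortex arrays. That is a 4.74-fold higher ratio in bulb, with a log2 difference of 2.24 ± 0.18 (SE from the fit of all 16 arrays, n = 3 in each region, adjusted p = 9.89e-08). Calb2, which encodes the calcium-binding protein calretinin of granule and periglomerular cells, stood at -0.16, -0.30 and -0.20 in bulb and at -2.28, -2.36 and -2.43 in cortex. Bulb exceeded cortex here by 2.13 ± 0.10 on the log2 scale (4.39-fold, adjusted p = 7.03e-11), a gap many times the spread within either region. Because whole sorted samples were measured, more cells that carry a transcript cannot be told apart from more transcript per cell.

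Dusp4, a phosphatase that dampens MAP kinase signalling, was at 3.33, 3.38 and 3.29 in bulb and at 1.37, 1.79 and 1.35 in cortex, a difference of 1.83 ± 0.12. Fgfr2, a fibroblast growth factor receptor, was at 1.48, 1.42 and 1.42 in bulb and at 0.03, 0.21 and 0.03 in cortex, a difference of 1.35 ± 0.09. Over the 3 probes of Fgfr2 the difference ran from 0.06 to 1.35. Dusp4 and Fgfr2 were above the total brain reference on every array of both regions, and for both all bulb arrays lay above all cortex arrays. Zic1, a zinc finger factor of periglomerular cell precursors and cerebellum, was at 0.80, 0.76 and 0.97 in bulb and at -0.76, -0.72 and -0.74 in cortex, thus above the reference in bulb only (difference 1.58 ± 0.11, adjusted p = 1.52e-08). Apod, a lipid-binding secreted apolipoprotein, was below the reference in both regions, at -1.61, -1.60 and -1.84 in bulb and -3.64, -3.78 and -3.53 in cortex (difference 1.97 ± 0.11). Slc1a3, the glial glutamate transporter GLAST, was at -1.15, -1.23 and -1.27 in bulb and at -2.77, -2.88 and -3.08 in cortex (difference 1.69 ± 0.10). Apart from clone and model names (Rik, Gm or LOC), which were not considered, the remaining genes among the 15 highest with a RefSeq gene symbol were Pcbp3, an RNA-binding protein, Otud7a, a deubiquitinase, Gas2l3, a cytoskeletal linker, Gng4, a G protein subunit, Epb41l3, a membrane cytoskeleton protein, Sybu, which links cargo to kinesin, Zfp385b, a zinc finger protein, and Dbpht2, with differences of 1.39 to 1.89. For Sybu 1 of 3 probes, and for Zfp385b 1 of 7, gave a difference of the opposite sign. The other of 2 probes gave 0.25 for Gas2l3 and 0.55 for Epb41l3.

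The 15 lowest genes were led by transcription factors. Foxp1, a forkhead factor of striatal projection neurons, was at -2.29, -2.53 and -2.63 in bulb and at -0.05, -0.12 and -0.18 in cortex. Its ratio was 5.15-fold lower in bulb, a log2 difference of -2.37 ± 0.09 (adjusted p = 1.16e-11). Id4, an inhibitor of basic helix-loop-helix factors, was at -1.17, -1.33 and -1.19 in bulb and at 0.80, 0.98 and 0.83 in cortex (difference -2.10 ± 0.09). Zfhx3, a homeobox and zinc finger factor, was at -1.23, -1.25 and -1.31 in bulb and at 0.70, 0.82 and 0.80 in cortex (difference -2.04 ± 0.09). Both were below the total brain reference in bulb and above it in cortex, on every array.

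Nkx2-1, the homeobox factor that specifies the medial ganglionic eminence, was at -1.62, -2.13 and -1.85 in bulb and at 0.05, -0.01 and -0.06 in cortex (difference -1.86 ± 0.14). Its signal was well above background on 1 of 3 bulb arrays and on 3 of 3 cortex arrays, so its bulb level is close to the background and the size of its difference is uncertain; it ran from -3.76 to -1.73 over the alternative settings. Nr2f1, the nuclear receptor COUP-TFI, was at -2.41, -2.42 and -2.70 in bulb and at -1.14, -1.09 and -1.22 in cortex (difference -1.36 ± 0.12). Ets1, an ETS family factor, differed by -1.48 ± 0.11. Cadm1, a synaptic adhesion molecule, differed by -1.60 ± 0.09, Scube1, a secreted signalling protein, by -1.65 ± 0.08, Thbs3, a thrombospondin of the extracellular matrix, by -1.40 ± 0.10, and Rph3a, the vesicle protein rabphilin, by -1.34 ± 0.11. Nyap1, a phosphoprotein of the PI3 kinase pathway, Ccdc184, B3gat3, a glycosaminoglycan enzyme, P2rx7, an ATP-gated channel, and Abcg1, a cholesterol transporter, lay between -1.35 and -1.21. One of 4 probes of B3gat3 went the other way, and its difference averaged over probes was no longer called. For all 30 named genes the bulb arrays lay wholly above or wholly below the cortex arrays, which the rule for naming required; 34.6% of all genes tested showed this separation.

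**Figure D1:**
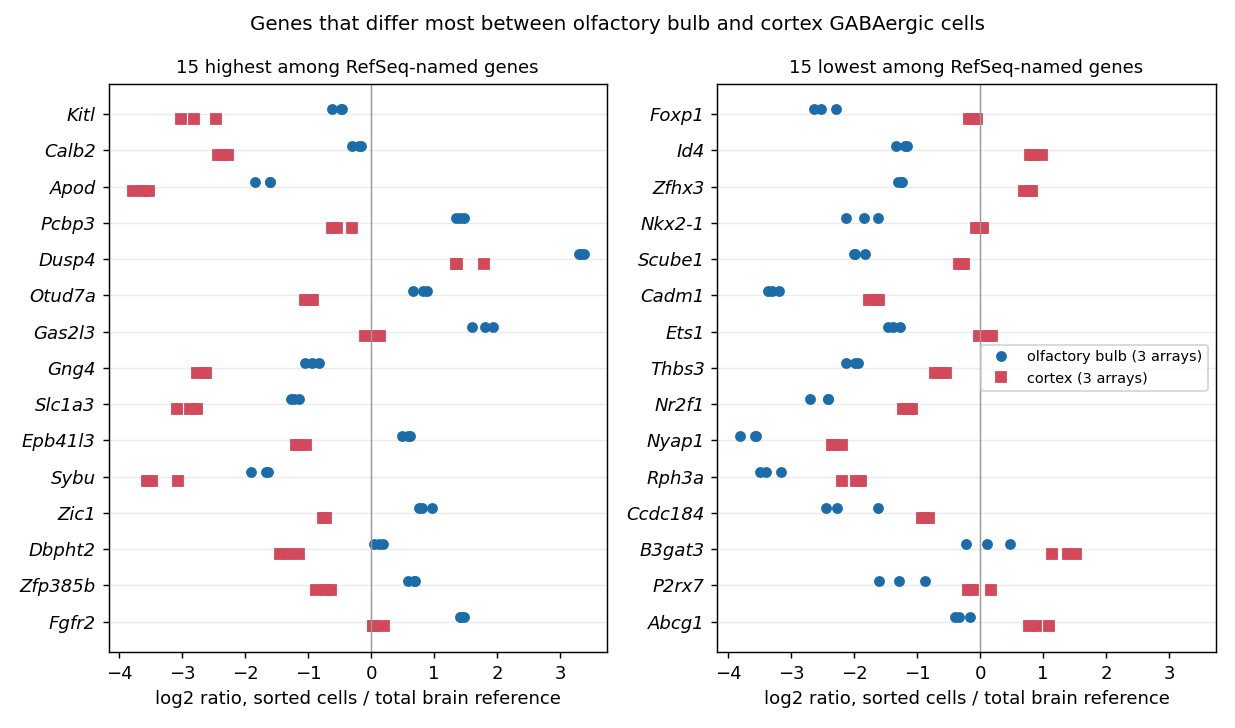
Log2 ratios to the total brain reference (horizontal axis) of the 15 highest and 15 lowest genes, with the 3 olfactory bulb arrays as circles and the 3 cortex arrays as squares in each row. The largest separations are those of Kitl, 2.24 higher in bulb, and Foxp1, at -2.37, and the symbols of the regions overlap in no row.

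A difference of ratios can come from either dye, so the sorted-cell channel was also compared alone. In that channel 6241 genes were called (22.9%), and 406 of them differed 2-fold or more. Of the 4477 genes called on the ratio, 3045 were called the same way in the sorted-cell channel and 4 the opposite way. Of the 96 genes with a 2-fold difference, 91 were called the same way, with a median of 106.6% of the difference lying in that channel. The reference channel, which holds the same kind of reference on every array, still gave 94 calls, 20 of them with a 2-fold difference. The count in the sorted-cell channel fell to 2704 without bulb replicate 1, 3700 without bulb replicate 2, 3870 without cortex replicate 2 and 2856 without cortex replicate 3.

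Foxp1 showed log2 Cy5 signals of 8.14, 7.85 and 7.81 in bulb and 10.27, 10.14 and 10.17 in cortex, a difference of -2.26 ± 0.14 that resembled its ratio. For Kitl the Cy5 signals were 9.05, 8.96 and 8.89 in bulb and 7.23, 6.66 and 6.41 in cortex. Both genes therefore differed by nearly as much in the sorted-cell signal as in the ratio. P2rx7 was the exception among the 30 named genes. Its Cy5 signals of 8.40, 8.46 and 7.69 in bulb overlapped those of 8.75, 8.17 and 7.83 in cortex (difference -0.07 ± 0.32, adjusted p = 0.902), while its reference signal differed by 1.15. Xrcc5, a DNA repair protein, rested on 1 array: its ratios were 2.07, -0.07 and 0.02 in bulb and -0.35, -0.31 and -0.41 in cortex, its sorted-cell difference was 0.11, and without bulb replicate 1 its ratio difference was 0.33 (adjusted p = 0.0587). Without any 1 of the cortex arrays its adjusted p was 0.085 to 0.112. The clone sequences LOC383229 and AF218295 had ratio differences of 1.02 and 1.00 but sorted-cell differences of -0.87 and -0.14. Sdk2, a synaptic adhesion molecule, had a ratio difference of 1.07 and a sorted-cell difference of 0.56 that was not called (adjusted p = 0.16), and 2 of its 4 probes gave the opposite sign.

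**Figure D2:**
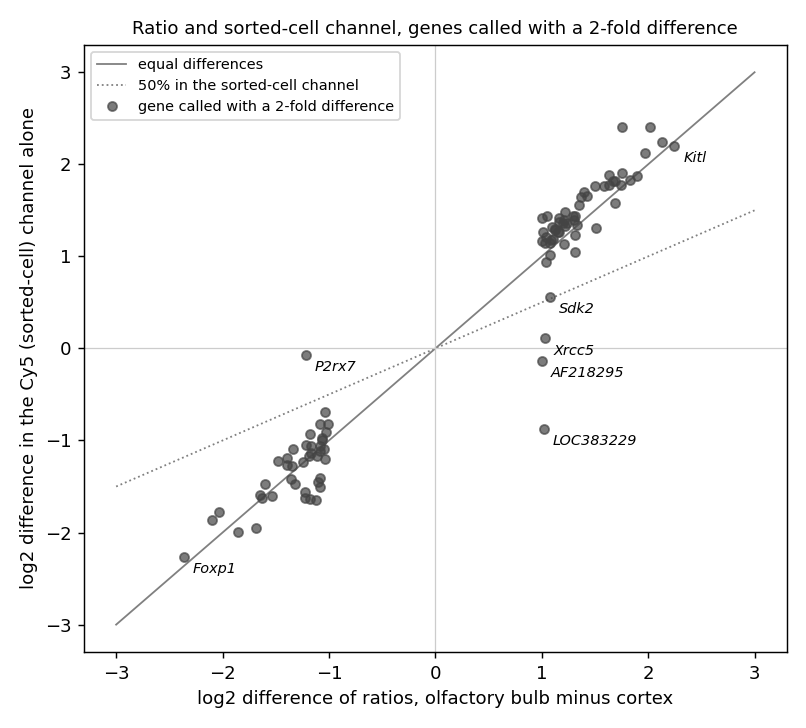
Log2 difference of ratios (horizontal axis) against log2 difference in the Cy5 sorted-cell channel alone (vertical axis), bulb minus cortex, for the 96 genes called with a 2-fold difference; the solid line marks equal differences and the dotted line 50% of the difference. Most genes lie along the solid line, and P2rx7, Xrcc5, LOC383229 and AF218295 lie nearer to or beyond 0 on the vertical axis.

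Genes of GABA synthesis and transport were not called between the regions. Gad1, which encodes glutamate decarboxylase 67, was at 0.85, 0.80 and 0.78 in bulb and at 0.74, 0.93 and 0.70 in cortex, so that the regions overlapped (difference 0.02 ± 0.13, adjusted p = 0.941). Gad2, the second decarboxylase, was at 1.92, 1.86 and 1.90 in bulb and at 1.74, 1.91 and 1.82 in cortex. Both were above the total brain reference on all 6 arrays. Of the 5 genes of GABA synthesis and transport, limma called 0, and 0 had an unadjusted p under 0.05. For this and all later lists, the shares over all genes tested were 8.25% higher and 8.17% lower. List counts are a description, since lists and members were chosen with earlier results of these data known. Slc32a1, the vesicular GABA transporter, differed by 0.15 ± 0.13 with 1 cortex array left out, where the scanner software had marked the spot.

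Forebrain GABAergic transcription factors averaged log2 ratios of 1.46 to 1.59 on bulb arrays and 1.39 to 1.44 on cortex arrays, so that both regions were enriched for them. Of 9 measured, 2 were higher in bulb, 1 lower and 6 not called. Dlx1, a homeobox factor of ventral forebrain progenitors, was at 3.84, 3.79 and 3.81 in bulb and at 3.53, 3.53 and 3.34 in cortex (difference 0.35 ± 0.10). Dlx6os1, a long noncoding transcript that overlaps Dlx6, was at 4.29, 4.25 and 4.04 in bulb and at 3.84, 3.76 and 3.80 in cortex (difference 0.39 ± 0.10). These gaps are small beside those of the leading genes, and both calls were lost without bulb replicate 1 (0.34, adjusted p = 0.0606, for Dlx1, and 0.35, adjusted p = 0.055, for Dlx6os1); that of Dlx1 was also lost without cortex replicate 3 (0.29, adjusted p = 0.0934).

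Of 17 genes known from olfactory bulb interneurons, 11 were higher in bulb and 2 lower, with a median difference of 0.60 against 5.1e-05 over all genes. The count of higher genes was 11 whichever array was left out, and 10 in the sorted-cell channel alone. Calb2 and Zic1, described above, are members. Etv1, an ETS factor of granule and dopaminergic bulb neurons, was at 2.66, 2.67 and 2.60 in bulb and at 1.69, 1.81 and 1.61 in cortex (difference 0.94 ± 0.09, adjusted p = 2.55e-06). Pbx3, a homeobox cofactor, was at 1.72, 1.67 and 1.66 in bulb and at 0.72, 0.90 and 0.70 in cortex (difference 0.91 ± 0.10). The other of its 2 probes gave a difference of 0.0006, though the call held with both averaged. Every array of both regions was above the reference for Etv1 and for Pbx3.

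Tshz1, a zinc finger factor needed by bulb interneurons to leave the migratory stream, was at 1.79, 1.82 and 1.87 in bulb and at 0.93, 1.06 and 0.97 in cortex (difference 0.84 ± 0.08). Pax6, a paired homeobox factor of periglomerular dopaminergic cells, was at 1.17, 1.07 and 1.14 in bulb and at 0.39, 0.37 and 0.26 in cortex (difference 0.79 ± 0.09). Sp8, a zinc finger factor of the dorsal lateral ganglionic eminence, was at 3.34, 3.33 and 3.36 in bulb and at 2.63, 2.86 and 2.74 in cortex (difference 0.60 ± 0.12). Sp8 was thus strongly enriched over total brain in cortex as well. Zic2, a relative of Zic1, differed by 1.09 ± 0.11, Meis1, a TALE homeobox factor, by 0.80 ± 0.09, with 1 of 2 probes of the opposite sign, and its relative Meis2 by 0.53 ± 0.10, though Meis2 was not called in the sorted-cell channel (0.27, adjusted p = 0.212).

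The 2 lower members of the list were Th and Tpbg. Th, the rate-limiting enzyme of dopamine synthesis, was at -1.29, -1.45 and -1.04 in bulb and at -0.92, -0.71 and -0.79 in cortex, lower by -0.46 ± 0.09. Tpbg, a surface glycoprotein of granule cells, differed by -0.47 ± 0.11. Both calls were lost under median centring, and that of Tpbg in the sorted-cell channel alone. Calb1, a calcium-binding protein, Scgn, a calcium sensor, Nr4a2, a nuclear receptor of dopaminergic cells, and Vax1, a homeobox factor, had differences between -0.17 and 0.21 and were not called.

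Genes of medial ganglionic eminence interneurons went both ways, with 3 of 15 measured higher in bulb and 4 lower. Lhx6, the LIM homeobox factor that follows Nkx2-1, was at -0.51, -0.60 and -0.61 in bulb and at 0.38, 0.22 and 0.33 in cortex (difference -0.88 ± 0.09, adjusted p = 4.44e-06). Sst, the neuropeptide somatostatin, was at -4.06, -4.19 and -4.55 in bulb and at -3.26, -3.30 and -3.57 in cortex (difference -0.89 ± 0.12). Lhx6 was below the reference in bulb and above it in cortex, while Sst was far below it in both. Cux2, a homeobox factor, was the other member that was lower beside Nkx2-1, at -0.42 ± 0.12. It lost its call without bulb replicate 1 (-0.41, adjusted p = 0.0591), bulb replicate 3 (-0.31, adjusted p = 0.0872) or cortex replicate 1 (-0.37, adjusted p = 0.0793), and under median centring. The higher members were Nxph1, a neurexin ligand, at 0.97 ± 0.12, Zeb2, a zinc finger repressor, at 0.64 ± 0.11, and Satb1, a chromatin organiser, at 0.50 ± 0.10. The list median was -0.19 and became 0.02 under median centring.

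In the caudal ganglionic eminence list, 1 of 13 genes was higher and 5 were lower, and the count of lower genes was 3 under median centring. Beside Nr2f1, the nuclear receptor COUP-TFII, Nr2f2, was at -1.69, -2.02 and -2.05 in bulb and at -0.94, -1.10 and -1.26 in cortex (difference -0.82 ± 0.10). Prox1, a homeobox factor of caudally derived interneurons, was at -0.06, -0.06 and 0.03 in bulb and at 0.61, 0.50 and 0.59 in cortex (difference -0.60 ± 0.10). Each of these factors had all bulb arrays under all cortex arrays. Npas1, a basic helix-loop-helix factor, differed by -0.42 ± 0.10, and both it and Prox1 lost the call under median centring. Cnr1, the cannabinoid receptor, differed by -0.31 ± 0.10, and its adjusted p was 0.0606 to 0.141 without any 1 array. Adarb2, an RNA-editing family protein, was higher at 0.78 ± 0.13, with 1 of its 2 probes of the opposite sign and no call on the mean of both. Htr3a, the serotonin receptor of these interneurons, had overlapping regions, at 0.51, 0.55 and 0.42 in bulb and 0.54, 1.31 and 0.68 in cortex (adjusted p = 0.0916).

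**Figure D3:**
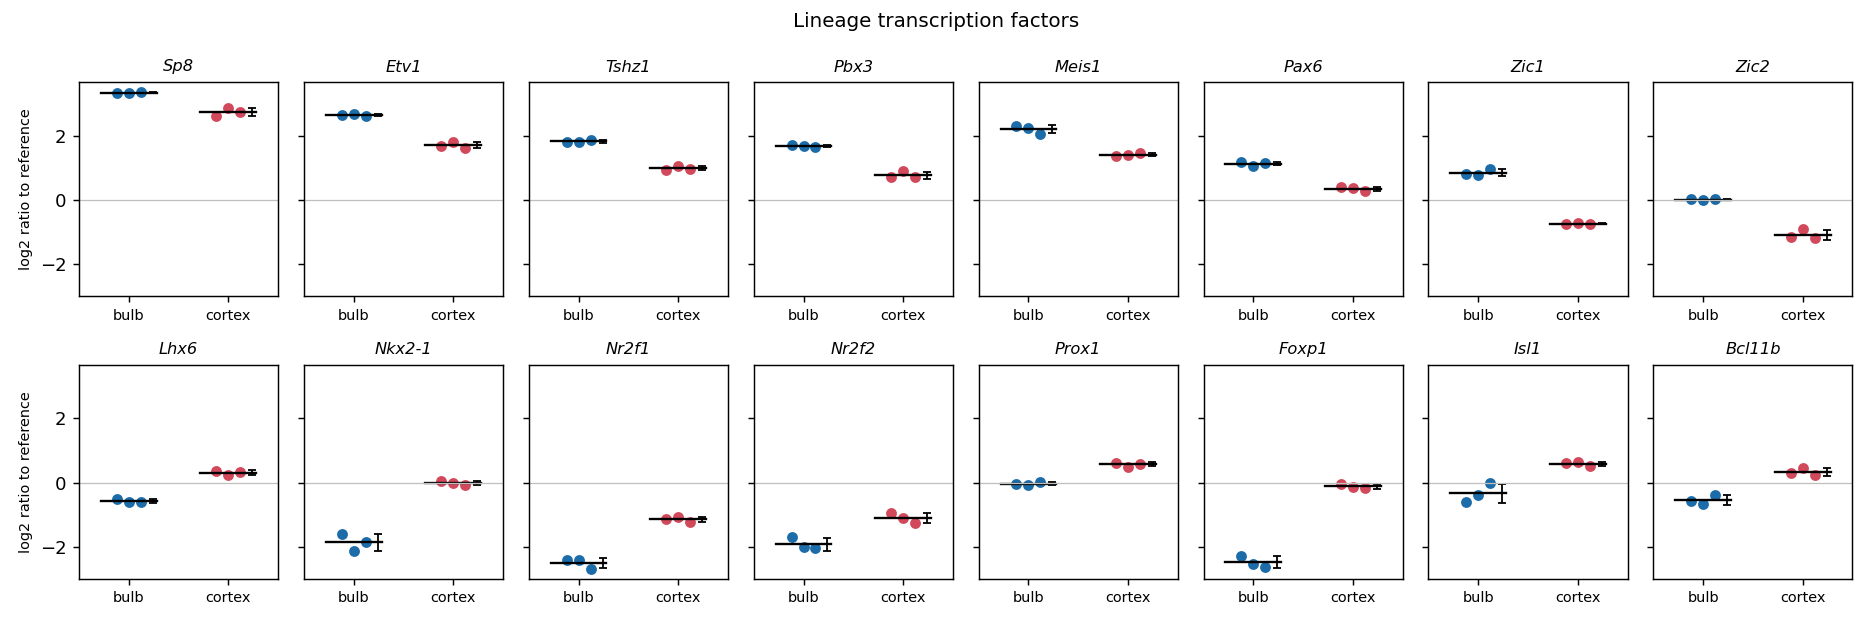
Log2 ratios to the total brain reference (vertical axis) of 16 lineage transcription factors, with 3 bulb arrays on the left and 3 cortex arrays on the right of each panel; long lines are means and error bars SD. The upper row, from Sp8 to Zic2, is higher in bulb and the lower row, from Lhx6 to Bcl11b, is lower in bulb.

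Genes known from striatal projection neurons were lower in bulb than in cortex in 11 of 21 cases and higher in 0; 0 also had an unadjusted p under 0.05 in the higher direction. The list median was -0.46, the count of lower genes was 10 to 12 when 1 array was left out, and 14 were lower in the sorted-cell channel. Isl1, a LIM homeobox factor of striatonigral neurons, was at -0.59, -0.40 and -0.02 in bulb and at 0.61, 0.64 and 0.52 in cortex (difference -0.92 ± 0.12). Its signal was well above background on 2 of 3 bulb arrays and 3 of 3 cortex arrays, and its difference ran from -2.48 to -0.80 over the alternative settings. Bcl11b, the zinc finger factor CTIP2, was at -0.58, -0.67 and -0.37 in bulb and at 0.28, 0.46 and 0.24 in cortex (difference -0.87 ± 0.09). Isl1 and Bcl11b were above the reference on all cortex arrays and below it on all bulb arrays.

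Zfp503, Six3 and Ebf1, which are transcription factors of the striatal lineage, differed by -0.79 ± 0.15, -0.76 ± 0.11 and -0.74 ± 0.17. Pde10a, the striatal phosphodiesterase, Rarb, a retinoic acid receptor, and Adora2a, the adenosine receptor of striatopallidal neurons, differed by -0.69 ± 0.10, -0.61 ± 0.12 and -0.52 ± 0.11, the call of Adora2a being lost under median centring. Tac1, which encodes substance P, differed by -0.36 ± 0.11 and lost its call without bulb replicate 1 (-0.23, adjusted p = 0.212), cortex replicate 1 (-0.34, adjusted p = 0.112) or cortex replicate 3 (-0.34, adjusted p = 0.108). The mean log2 ratio of the list was -0.58 to -0.50 on bulb arrays and -0.03 to 0.03 on cortex arrays. The mean of the 3 arrays of sorted striatal cells was above the cortex mean for 13 of the 21 members, and for 9 of the 11 called lower; Adora2a and Tac1 were the 2 called members below it. Whether striatal or other basal forebrain cells in the dissected cortex had a part in these differences was not tested.

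Receptors and ligands of migration and guidance went both ways. Of 33 measured, 6 were higher in bulb and 10 lower (5 under median centring), and the count of higher genes was 6 whichever array was left out. Robo2, a receptor for Slit repellents, was at 1.95, 1.96 and 1.80 in bulb and at 0.78, 0.70 and 0.61 in cortex (difference 1.21 ± 0.10, adjusted p = 1.39e-07). Its relative Robo1 went the other way, at -0.38, -0.47 and -0.50 in bulb and 0.46, 0.53 and 0.46 in cortex (difference -0.93 ± 0.08, adjusted p = 3.97e-07). Slit1, one of their ligands, was at -0.28, -0.26 and -0.27 in bulb and at 0.20, 0.21 and 0.22 in cortex (difference -0.48 ± 0.08), a call lost under median centring. The regions did not overlap for any of these 3 genes.

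Prokr2, the prokineticin receptor through which bulb precursors are guided, was at 1.65, 1.41 and 1.14 in bulb and at 0.34, 0.54 and 0.36 in cortex (difference 0.99 ± 0.13). Nrp2, a semaphorin co-receptor, differed by 0.79 ± 0.11, with 1 of 3 probes of the opposite sign, Unc5c, a netrin receptor, by 0.73 ± 0.15, and Efnb3, an ephrin, by 0.44 ± 0.09. Epha4, an ephrin receptor, was at -0.26, -0.17 and -0.18 in bulb and at 0.93, 0.88 and 0.82 in cortex (difference -1.08 ± 0.10, adjusted p = 9.65e-07). Plxna4, a semaphorin receptor, differed by -0.71 ± 0.10. Cxcr4, the chemokine receptor that holds cortical interneurons in their streams, was at -0.91, -0.76 and -0.56 in bulb and at -0.25, -0.27 and -0.21 in cortex (difference -0.50 ± 0.12), a call lost under median centring.

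The ligand and receptor pair Kitl and Kit moved in opposite directions. Kit was at -1.55 and -1.38 on the 2 bulb arrays with a usable spot and at -0.99, -0.99 and -0.92 in cortex (difference -0.50 ± 0.12). It lost its call without bulb replicate 1 (-0.41, adjusted p = 0.088) and under median centring. Met, a growth factor receptor, and Plxna2, another semaphorin receptor, differed by -0.40 ± 0.10 and -0.38 ± 0.09. Unc5d, a netrin receptor, and Efna5, an ephrin, differed by -0.41 ± 0.14 and -0.35 ± 0.10. Plxna2, Unc5d and Efna5 lost the call under median centring, and Plxna2 also with its probes averaged. Unc5d had an adjusted p of 0.0575 to 0.183 without any 1 array but cortex replicate 3. Efna5 lost its call without bulb replicate 2 (-0.30, adjusted p = 0.0929) or cortex replicate 2 (-0.24, adjusted p = 0.133). Erbb4, the neuregulin receptor of interneurons, overlapped between regions (difference -0.19 ± 0.14) and was lower in the sorted-cell channel alone (-0.81, adjusted p = 0.014); 3 of its 4 probes gave the opposite sign on the ratio.

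**Figure D4:**
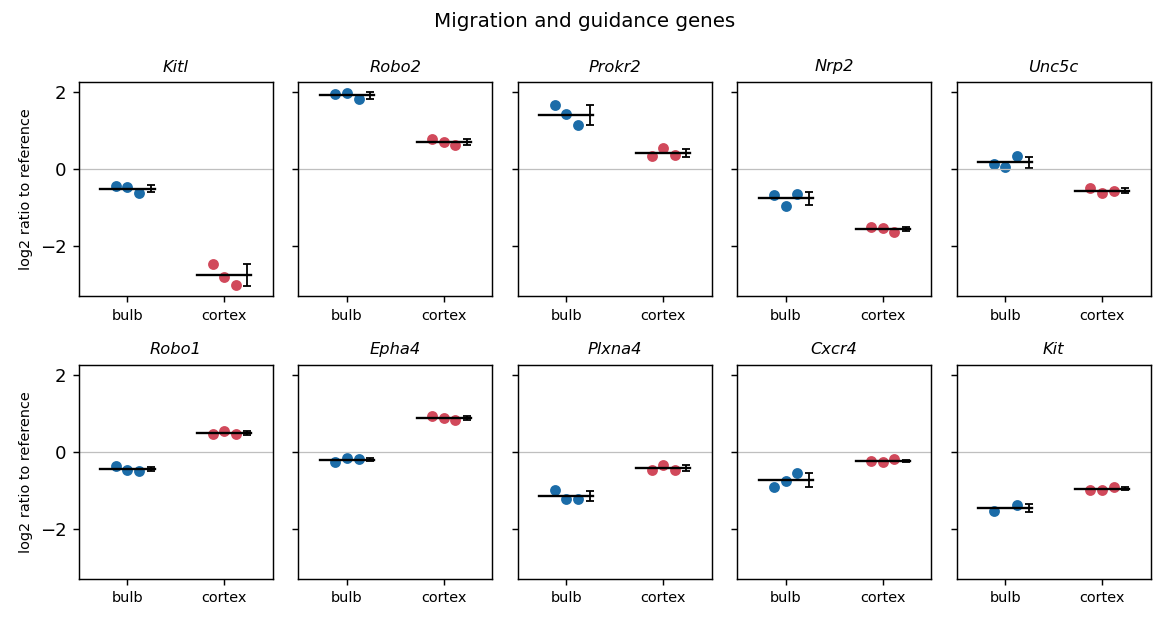
Log2 ratios to the total brain reference (vertical axis) of 10 migration and guidance genes, with 3 bulb arrays on the left and 3 cortex arrays on the right of each panel; long lines are means and error bars SD, and Kit has 2 usable bulb arrays. The upper row is higher in bulb, from 0.73 for Unc5c to 2.24 for Kitl, and the lower row is lower in bulb.

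Of 32 cell adhesion molecules, 8 were higher in bulb, 6 lower and 18 not called, against 8.25% higher and 8.17% lower over all genes. Pcdh10, a protocadherin, was higher by 0.79 ± 0.09, with 2 of 4 probes agreeing in sign, and Cdh11, a type II cadherin, by 0.58 ± 0.10. Ncam1, the carrier of polysialic acid on migrating neuroblasts, was at 1.19, 1.08 and 1.24 in bulb and at 0.65, 0.79 and 0.47 in cortex (difference 0.54 ± 0.12). Chl1, a relative of the adhesion molecule L1, was at -2.82, -3.06 and -3.13 in bulb and at -2.20, -2.20 and -2.27 in cortex (difference -0.78 ± 0.11). Nrcam, of the same family, differed by -0.60 ± 0.10. The calls of Pcdh10, Cdh11, Ncam1 and Nrcam were lost when all probes of a gene were averaged.

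In the fibroblast growth factor list, 3 of 16 genes were higher and 0 lower in limma's test, where 2 had an unadjusted p under 0.05 in the lower direction. The third, beside Dusp4 and Fgfr2, was Etv5, an ETS factor downstream of these receptors. It was at -0.46, -0.53 and -0.52 in bulb and at -1.39, -1.19 and -1.52 in cortex (difference 0.86 ± 0.12, and 0.22 on the other of its 2 probes). The other 13, among them the remaining receptors and the Sprouty and Spred inhibitors, were not called on the ratio. In the sorted-cell channel alone 4 members of the list were higher and 1 lower.

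Among 14 genes for GABA receptors the test called 2 higher and 3 lower and left 9 uncalled, against 8.25% higher and 8.17% lower over all genes. Gabbr1, a subunit of the metabotropic GABA receptor, was higher by 0.43 ± 0.10, and Gabra3, an alpha subunit of the ionotropic receptor, differed by -0.54 ± 0.10. Gabra3 lost the call when its probes were averaged, and the 3 probes of Gabbr1 gave differences from 0.05 to 0.43. Of 16 glutamate receptor genes, 2 were higher, 3 lower and 11 not called. Gria1, an AMPA receptor subunit, was at -0.39, -0.24 and -0.36 in bulb and at -1.04, -0.98 and -1.30 in cortex (difference 0.78 ± 0.11), and Gria2 differed by 0.58 ± 0.11. Gria4, another AMPA receptor subunit, went the other way, at -2.07, -2.11 and -2.23 in bulb and -1.35, -1.24 and -1.52 in cortex (difference -0.76 ± 0.09). Grin2b, an NMDA receptor subunit, was at -0.01, 0.05 and 0.32 in bulb and at 1.11, 0.80 and 0.98 in cortex (difference -0.84 ± 0.11), a call lost when its 4 probes were averaged.

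Among the 4 chloride cotransporters, Slc12a2, the importer NKCC1, was lower in bulb, at -0.78, -0.73 and -0.77 against -0.14, -0.25 and -0.20 in cortex (difference -0.56 ± 0.11, adjusted p = 0.00165). Slc12a5, the neuronal exporter KCC2, was higher by 0.27 ± 0.09 with an adjusted p of 0.0476. Without any 1 array but bulb replicate 3 its adjusted p was 0.0689 to 0.179, and it was called in 7 of 17 alternative settings.

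Of 14 genes of postmitotic neurons 3 were higher and 1 lower. Dcx, the microtubule protein of migrating neurons, was at 1.01, 1.01 and 0.97 in bulb and at 0.48, 0.59 and 0.25 in cortex (difference 0.56 ± 0.11), and Map2, a dendritic microtubule protein, differed by 0.69 ± 0.10. Stx1a, a syntaxin of vesicle release, differed by -0.55 ± 0.11, a call lost under median centring. Of 18 proliferation genes, 1 was higher (Cenpf, a kinetochore protein, by 0.42), 1 lower (Bub1, a checkpoint kinase, at -0.43) and 16 not called, a share near that of all genes. Neither was called in the sorted-cell channel, where the difference of Cenpf was -0.13. One of the 2 probes of Cenpf gave the opposite sign on the ratio, and its call was lost with its probes averaged (0.17). Mki67, the cell cycle antigen Ki-67, was at 0.92, 1.01 and 0.48 in bulb and at 0.80, 0.81 and 0.81 in cortex, with no difference in the means beyond the bulb spread.

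Immediate early genes, which switch on within minutes of stimulation and also during dissociation and sorting, were lower in bulb or not called. Of 18 measured, 9 were lower and 0 higher, and 0 had an unadjusted p under 0.05 in the higher direction; the list median was -0.38. The number lower was 7 in the sorted-cell channel, 7 to 8 with 1 array left out and 4 under median centring. Jun, a subunit of the AP-1 factor, was at 1.20, 1.24 and 1.09 in bulb and at 2.12, 2.29 and 2.16 in cortex (difference -1.01 ± 0.11, adjusted p = 9.45e-06). Fos, its partner, was at 1.37, 1.78 and 1.69 in bulb and at 2.32, 2.68 and 2.47 in cortex (difference -0.87 ± 0.20), but its sorted-cell difference of -0.61 was not called (adjusted p = 0.0624). Both were above the total brain reference on all 6 arrays. Egr1, a zinc finger factor, and Arc, a synaptic regulator, each differed by -0.76, with SE of 0.14 and 0.12. Fosb, Jund and Hspa1a, the last a heat shock protein with 2 of 4 probes of the opposite sign, differed by -0.49, -0.48 and -0.46. Junb went the other way without a call, at 1.80, 1.69 and 1.77 in bulb and 1.40, 1.13 and 1.27 in cortex. Its difference was 0.48 ± 0.33 (limma, adjusted p = 0.356), and 1 of its 2 probes gave the opposite sign. The Junb spot was saturated on 2 bulb arrays and 1 cortex array. Whether handling time or stress differed between the dissected regions was not tested.

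Promoters are shown for the 3 members called lower that hold, in the 250 bases before the start, letters that bind CREB and AP-1 family factors, which relay such stimuli. They were picked for these letters, and whether the letters had a part in the differences was not tested. The sequences are those of RefSeq on GRCm38.p6, each 5′ to 3′ on the strand of its gene, with the matched letters in capitals: TGACGTCA in Dusp1 and Btg2, and TGACATCA in Jun.
Jun, chr4:95052223-95052472, minus strand: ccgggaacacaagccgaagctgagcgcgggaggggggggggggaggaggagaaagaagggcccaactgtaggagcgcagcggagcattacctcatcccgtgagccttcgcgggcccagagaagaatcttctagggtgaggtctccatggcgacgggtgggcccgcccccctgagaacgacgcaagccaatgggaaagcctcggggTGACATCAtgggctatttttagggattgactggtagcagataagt
Dusp1, chr17:26508473-26508722, minus strand: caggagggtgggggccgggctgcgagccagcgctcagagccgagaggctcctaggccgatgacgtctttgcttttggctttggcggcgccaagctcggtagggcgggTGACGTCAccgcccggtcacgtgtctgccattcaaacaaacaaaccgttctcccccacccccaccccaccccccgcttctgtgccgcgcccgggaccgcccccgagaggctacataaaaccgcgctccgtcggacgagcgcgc
Btg2, chr1:134079156-134079405, minus strand: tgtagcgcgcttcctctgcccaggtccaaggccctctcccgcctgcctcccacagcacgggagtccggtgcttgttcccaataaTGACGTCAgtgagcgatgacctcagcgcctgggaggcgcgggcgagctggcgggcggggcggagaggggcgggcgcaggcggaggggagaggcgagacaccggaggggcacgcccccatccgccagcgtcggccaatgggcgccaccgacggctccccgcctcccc
Searched on both strands, TGACGTCA occurred in 1.55% and TGACATCA in 2.93% of 32851 such windows. A window was used for 14 of the 18 members: 3 of the 7 called lower held one of these motifs, and 0 of the 7 not called did. The letters TGACG, contained in TGACGTCA and found in 17.8% of all windows, occurred in 4 of the 7 called lower and in 5 of the 7 not called. These matches are a description of the letters and not evidence of binding. Dusp1, a phosphatase of MAP kinases, and Btg2, an antiproliferative protein, had small differences of -0.43 ± 0.12 and -0.27 ± 0.09. The call of Dusp1 was lost without bulb replicate 2 (-0.42, adjusted p = 0.0535), cortex replicate 2 (-0.40, adjusted p = 0.0621) or cortex replicate 3 (-0.40, adjusted p = 0.0747). That of Btg2 was lost without any 1 array except cortex replicate 2, with adjusted p of 0.0647 to 0.147.

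Markers of other cell types were called in several lists, against 8.25% higher and 8.17% lower over all genes. Among 18 genes of astrocytes and radial glia, bulb was higher for 5 and lower for 1, and the mean log2 ratio of the list was -0.86 to -0.74 on bulb arrays and -1.15 to -0.99 on cortex arrays. Fabp7, the brain lipid-binding protein of radial and ensheathing glia, was at -1.52, -1.59 and -1.60 in bulb and at -2.50, -2.67 and -2.76 in cortex (difference 1.07 ± 0.10). Gja1, the astrocytic connexin 43, differed by 0.95 ± 0.16 and Tnc, a matrix protein of glia, by 0.61 ± 0.11, the call of Tnc being lost with its probes averaged. Gfap and Aqp4, markers of mature astrocytes, overlapped between regions and were not called. Slc1a3, Fabp7, Gja1 and Tnc were below the total brain reference on every array of both regions. Higher ratios than in cortex were not particular to bulb. Sorted striatal cells averaged -1.09 for Slc1a3, -1.46 for Fabp7 and -2.31 for Gja1, above the bulb means of -1.22, -1.57 and -2.60. Cerebellum averaged -1.96, -1.53 and -2.58, so cortex was the lowest dissected region for each. Tnc averaged -1.58 in striatum and -1.52 in cerebellum, below its bulb mean of -1.20.

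A list of 7 genes of olfactory ensheathing glia was drawn up after values had been seen, so it too is only a description. Its mean log2 ratio was -0.68 to -0.44 on bulb arrays and -1.17 to -1.01 on cortex arrays. Of the 7 genes 3 were higher and 0 lower. Among the higher ones were Frzb, a secreted Wnt antagonist, by 1.24 ± 0.17, and Fabp7. Sox10, S100b, Npy and Ngfr of that list were not called, with differences of -0.03 to 0.15. Their part, and that of astrocyte genes, in the higher ratios of Slc1a3 and Apod was not tested. Of 12 meningeal and choroid plexus genes, 2 were higher and 2 lower. Dcn, the matrix protein decorin, differed by 1.13 ± 0.13 and Igf2, a growth factor of the meninges, by 0.97 ± 0.11, both below the reference on every array. The other of 2 probes gave 0.06 for Dcn and 0.39 for Igf2. Igf2 averaged -2.84 in striatum and -3.38 in cerebellum, both above its bulb mean of -3.44. Dcn averaged -1.95 and -1.72 there, both below its bulb mean of -1.16. The lower members were Folr1, a folate receptor of choroid plexus, at -0.86 ± 0.12, and Ttr, the choroid plexus protein transthyretin, at -0.60 ± 0.19. Ttr had an adjusted p of 0.0525 to 0.129 without any 1 array and lost the call under median centring.

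Of 16 glutamatergic neuron genes 3 were lower and limma called 0 higher, with 0 at an unadjusted p under 0.05 in that direction. In the sorted-cell channel alone 4 were lower and 1 higher. The mean ratio of the list was -1.57 to -1.40 on bulb arrays and -1.32 to -1.13 on cortex arrays. Emx1, a homeobox factor of the dorsal forebrain, was at -1.58, -1.56 and -0.71 in bulb and at -0.14, -0.13 and -0.04 in cortex (difference -1.18 ± 0.20), and Slc17a6, a vesicular glutamate transporter, differed by -0.77 ± 0.12, with 1 of 2 probes of the opposite sign. Slc17a7, the cortical vesicular glutamate transporter, and Neurod6, a factor of pyramidal neurons, overlapped between regions at ratios of -3.26 to -2.41, Slc17a7 being well above background on 1 of 3 arrays in each region. Of 14 microglia genes 4 were lower, a count of 1 under median centring, and 0 higher, with 0 at an unadjusted p under 0.05 in that direction. P2ry12, the microglial purine receptor, differed by -0.82 ± 0.13, and the list averaged -0.87 to -0.77 on bulb arrays and -0.63 to -0.58 on cortex arrays.

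Of 11 oligodendrocyte lineage genes 1 was higher and 2 lower, and of 7 erythroid genes 0 were higher and 1 lower, with 1 at an unadjusted p under 0.05 in the higher direction. Limma called 0 of 13 endothelial and mural cell genes, 0 of 13 midbrain and hindbrain patterning genes and 0 of 5 sex-linked genes, among which 2, 3 and 1 had an unadjusted p under 0.05. In the sorted-cell channel alone 1 endothelial and mural cell gene was higher and 2 were lower. Of 8 housekeeping genes 2 were higher (Ywhaz and Ppia, by 0.45 and 0.41) and 1 lower (Gusb, at -0.60); the call of Ppia was lost without any 1 array (adjusted p = 0.0531 to 0.124) and under median centring, that of Ywhaz with its probes averaged and that of Gusb under median centring.

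**Figure D5:**
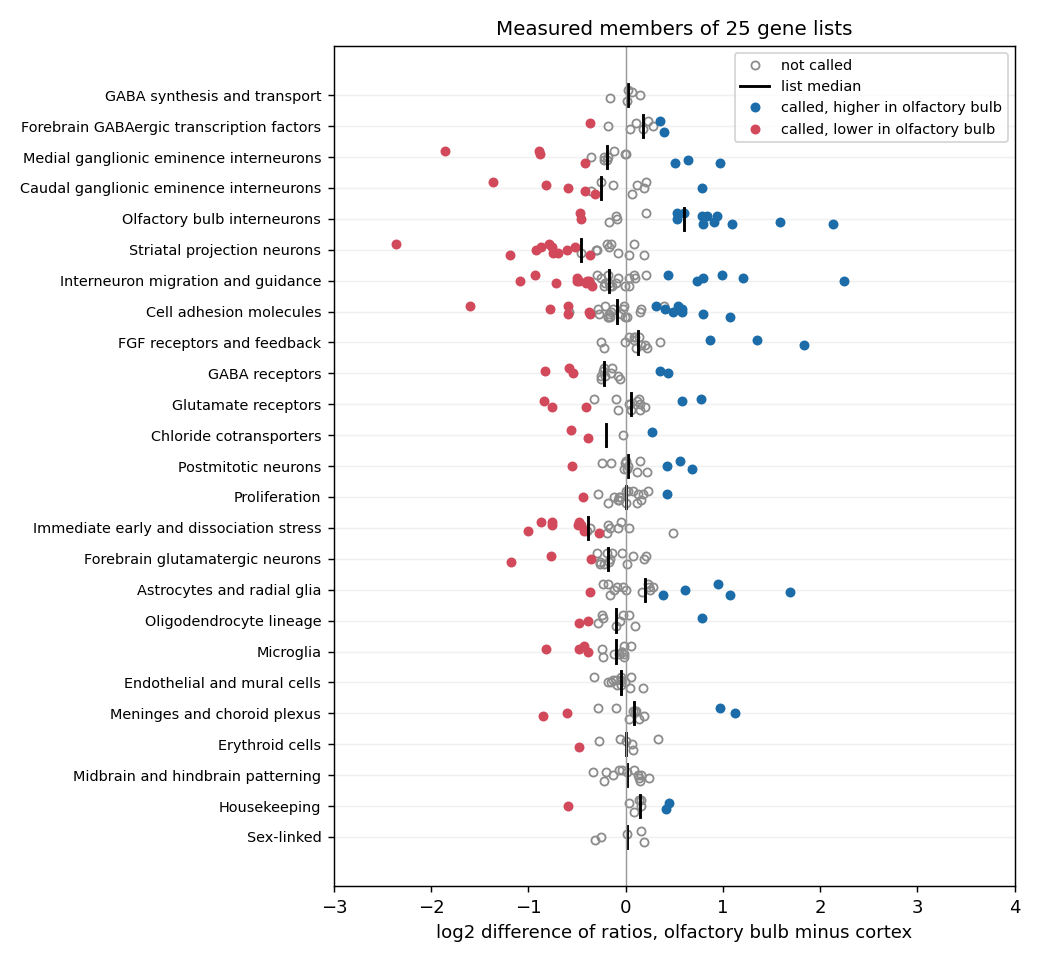
Log2 difference of ratios, bulb minus cortex (horizontal axis), for the measured members of 25 gene lists, 1 row a list; filled circles are called genes, open circles genes not called, and the vertical bar is the list median. The olfactory bulb interneuron list lies to the right, with a median of 0.60, and the striatal projection neuron and immediate early lists to the left, at -0.46 and -0.38.

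Sorted cells of the other dissected regions place the 96 genes with a 2-fold difference. The mean of the 3 striatum arrays lay nearer to cortex than to bulb for 87 of them, 48 of the 55 higher and 39 of the 41 lower. Cerebellum lay nearer to cortex for 68, which were 44 of the higher and 24 of the lower genes. Calb2 averaged -0.22 on bulb arrays, against -2.36 for cortex, -2.30 for striatum and -1.78 for cerebellum. Zic1 differed from this pattern, with means of 0.84 on bulb arrays, -0.74 for cortex, 0.23 for striatum and 2.38 for cerebellum. So did Slc1a3 and Fabp7, whose striatum means of -1.09 and -1.46 were above their bulb means of -1.22 and -1.57. These counts are a description, since the genes were chosen on the difference between bulb and cortex.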

How the data were processed

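Each array carried sorted GABAergic cells (Cy5) against total brain reference (Cy3). Per the file headers, the deposited scanner files hold spot and background intensity, quantified by Agilent Feature Extraction 8.1.1.1 (per the submitters' processing notes), and a log10 ratio from the same software, used only as an alternative; the authors' deposited value table was not used here. The reference label calls Cy3 red, so direction rests on the dye names. With limma 3.58.1 (R 4.3.3), background was corrected by normexp (offset 50), which shrinks ratios of dim spots, and ratios were loess-normalized within arrays. Control spots, and those the scanner software marked, were excluded. Of 28655 genes, each its brightest probe, 27262 passed a filter (Cy5 well above background on 3 or more arrays, or Cy3 on 8 or more). Probes were named through RefSeq by accession (21445), symbol (5431) or synonym (4636), and 9662 kept the array's name. All 16 arrays were fitted with 5 group means, and a Benjamini-Hochberg adjusted p under 0.05 made a call. The Cy5 channel was tested after equalising average intensity between arrays. The procedure was checked on simulated data with independent, normally distributed errors. It called 100% of 100 genes given a log2 difference of 1, and 54% of 100 given 0.5, with 5 false calls. A difference of 0.5 can thus go uncalled. Alternatives concerned background, normalization, filter, probes, samples and each array left out.

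The labels give no pairing of bulb with cortex arrays. Deviations from group means of arrays with the same replicate number correlated at 0.0912, -0.0647 and -8.25e-05. These values cannot show whether such arrays share animals. Named genes are the 15 highest and 15 lowest called genes with a RefSeq symbol and separated regions, the 5 with a 2-fold difference whose Cy5 share was smallest, and members of 25 lists; members and lists were chosen with earlier results of these data known. Some called list members are counted but not reported here by name. Signal over background limits dim genes, and 3 arrays a region limit precision.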

Additional observations from a re-analysis of the deposited data

How the results depend on the processing

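The number of genes called (4477) ran from 3913 to 5908 over the settings that kept all bulb and cortex arrays, and from 2619 to 4567 when 1 of them was left out. The number with a 2-fold difference (96, of which 55 higher) was 500 with a normexp offset of 0 (206 higher), 156 under median centring (112 higher) and 827 with the scanner software's own log ratio (404 higher); it was 73 to 132 under the other settings with all 6 arrays and 91 to 136 with 1 left out. The count in the sorted-cell channel (6241) was 6814 with that channel normalized on its own, 7261 from the 6 arrays alone and 2704 to 7207 with 1 left out. A replicate block, on the 12 regional arrays, gave 5034 calls and 97 with a 2-fold difference, against 4925 and 95 on those arrays without it. Since the labels give no pairing, the block is given only here. Of 149 called list members and named genes, 87 were called the same way under all 17 alternatives, 3 (Nkx2-1, Isl1 and Bub1) under the 16 in which they were tested, since the filter on all 6 arrays removes them, 59 lost the call under at least 1 and 0 reversed. Of the 30 highest and lowest genes 28 kept it under 17 and Nkx2-1 under 16, and B3gat3 lost it with its probes averaged (-0.28). Blocks for slide and scan date were not run, because each array is its own slide and all bulb and cortex arrays were scanned on 1 day. List counts with 1 array left out and in the sorted-cell channel alone were added after the data were seen. Signal over background limits the dimmest genes, such as Nkx2-1 in bulb.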
